A study of Arabidopsis thaliana with 8 samples.

Results

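The genes described here are 10 genes of brassinosteroid synthesis, perception and response in Arabidopsis thaliana. They were chosen by name and locus: IBH1 (AT2G43060), DET2 (AT2G38050), DWF4 (AT3G50660), CPD (AT5G05690), ROT3 (AT4G36380), BR6OX1 (AT5G38970), BR6OX2 (AT3G30180), BAS1 (AT2G26710), BRI1 (AT4G39400) and BZR1 (AT1G75080). All 10 were among the 20613 genes tested, and the probe used for each was well above background on all 8 arrays. The arrays hybridised RNA of the aerial part of 6-day-old seedlings of sdg8, sdg26 and the double mutant sdg8 sdg26, with the wild type Col as control, 2 arrays per genotype. Seedlings had been grown at 22 °C with 16 h of light and 8 h of darkness. The labels name no allele. The design text mentions 2 experiments with 3 RNA sets per genotype, but no label says which set gave which array or whether the 2 samples of a genotype were separate cultures, so the p-values reflect no more than the spread among these particular samples. SDG8 and SDG26 encode histone methyltransferases, and the series title asks which genes the mutations affect alike and which in opposite ways.

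Brassinosteroids are plant steroid hormones that promote cell elongation. In Arabidopsis they are made from campesterol by a reductase, DET2, and a set of cytochrome P450 enzymes, and BRI1 binds the hormone at the cell surface. The signal lets BZR1 accumulate in the nucleus, where it represses several synthesis genes as feedback and also represses IBH1, whose helix-loop-helix protein binds growth-promoting transcription factors and keeps them off DNA.

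Each level below is the log2 of a probe's processed signal minus the 75th percentile of that array, so 0 marks the 75th percentile and 1 unit is a doubling. Levels of different genes come from different probes and are not compared. SDG8 was 7.49-fold lower in sdg8 and 5.05-fold lower in sdg8 sdg26 than in wild type (limma, adjusted p = 0.00157 and 0.00225). SDG26 was 24.8-fold lower in sdg26 and 10.9-fold lower in sdg8 sdg26 than in wild type (limma, adjusted p = 0.0294 and 0.00438). The targeted gene was thus low in every genotype labelled as its mutant; the labels do not place the mutations within either gene. Replicates correlated at 0.985 to 0.991 over probes. The 2 sdg8 arrays shared 1 slide, the 4 arrays of sdg26 and sdg8 sdg26 shared another, and each wild-type array lay on a slide of its own. Only sdg8 sdg26 and sdg26 can be compared within a slide; no other comparison has a within-slide value.

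Few of the 10 genes passed the test in any comparison. In sdg8 against wild type 1 of 10 rose (IBH1) and 0 fell, where 0.81% of all genes tested were called higher and 1.87% lower at an adjusted p under 0.05. In sdg26 against wild type 0 of 10 were called, against 0% higher and 0.0097% lower among all genes. In sdg8 sdg26 against wild type 2 of 10 rose (BR6OX1 and BR6OX2) and 0 fell, against 3.06% higher and 3.34% lower. An unadjusted p under 0.05 was found for 2 of 10 genes in sdg8, 1 of 10 in sdg26 and 5 of 10 in sdg8 sdg26, against 16.7%, 8.94% and 26.1% of all genes. With 10 genes chosen in view of earlier results, these counts describe the set and carry no test. The median log2 difference of the 10 genes from wild type was 0.16 (sdg8), -0.06 (sdg26) and 0.31 (sdg8 sdg26), against -0.01, 0.02 and 0.03 for all genes.

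**Figure D1:**
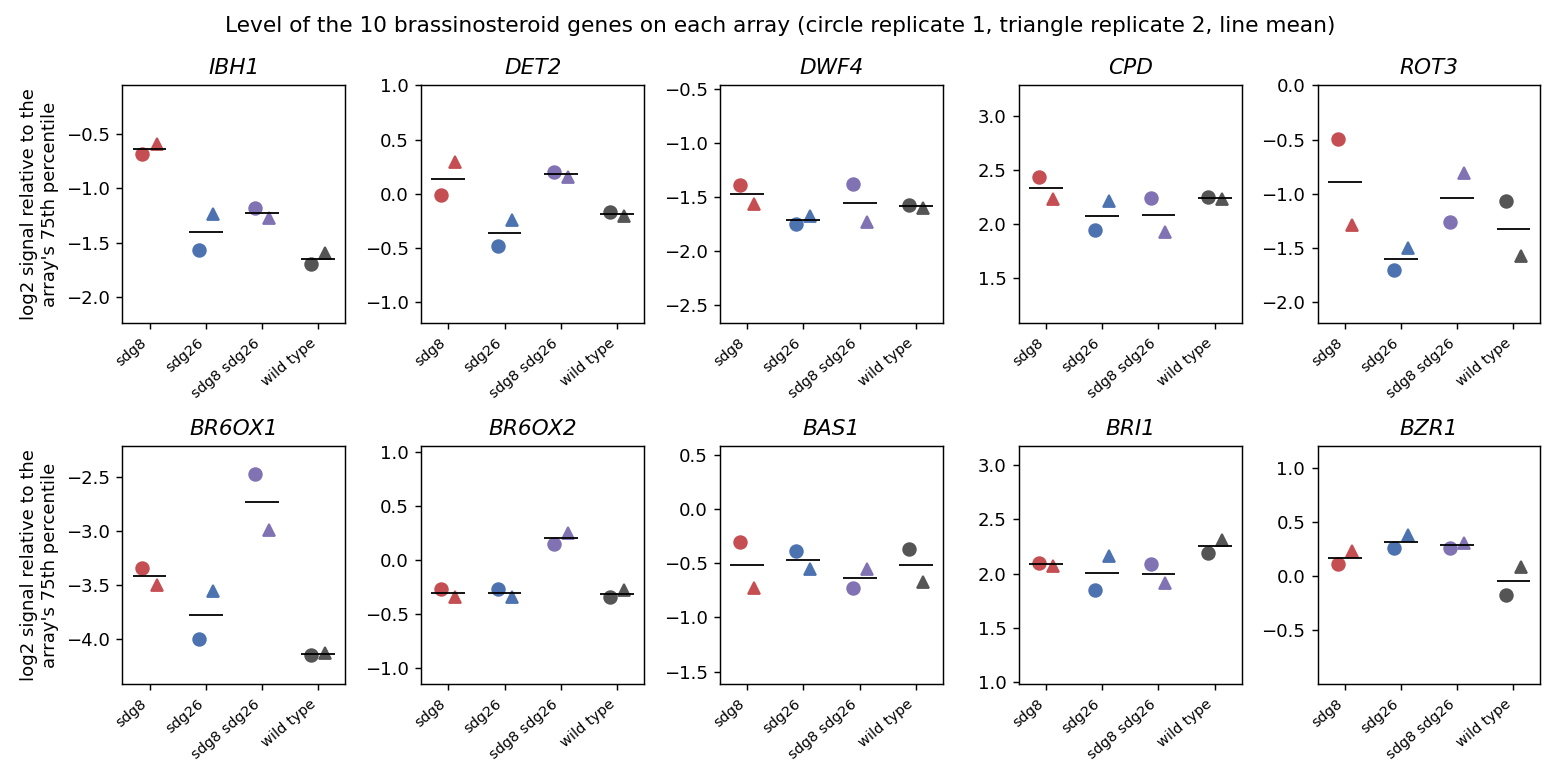
Level of each of the 10 genes (log2 signal relative to the array's 75th percentile, vertical axis, 1 panel per gene with its own range) on the 8 arrays, with a circle for replicate 1, a triangle for replicate 2 and a line at the genotype mean. Both sdg8 arrays lie above all others for IBH1 (-0.68 and -0.59), and both sdg8 sdg26 arrays lie above all others for BR6OX1 (-2.48 and -2.99) and BR6OX2 (0.15 and 0.25).

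IBH1, the inhibitor of cell elongation, was highest in sdg8. Its level was -0.68 and -0.59 on the sdg8 arrays, -1.57 and -1.24 on the sdg26 arrays and -1.18 and -1.27 on the sdg8 sdg26 arrays, against -1.70 and -1.6 on the wild-type arrays. Every array of each mutant lay above both wild-type arrays, and both sdg8 arrays lay above every other array. The difference from wild type was 1.02 ± 0.15 in sdg8 (SE, 2.02-fold, 95% interval 0.67 to 1.36, limma, adjusted p = 0.021). It was 0.25 ± 0.15 in sdg26 (adjusted p = 0.657) and 0.43 ± 0.15 in sdg8 sdg26 (95% interval 0.08 to 0.77, adjusted p = 0.125 by limma), neither of which passed the test. In bulk samples such as these, a change in the number of cells of a type and a change in RNA per cell cannot be told apart.

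The IBH1 level of the double mutant stood between those of wild type and sdg8. Set directly against sdg8, sdg8 sdg26 differed by -0.59 ± 0.15 (adjusted p = 0.17 by limma), and set against sdg26 by 0.18 ± 0.15 (adjusted p = 0.637). The interaction, by which the double mutant departed from the sum of both single-mutant differences, was -0.84 ± 0.21 with an unadjusted p of 0.00502 and an adjusted p of 0.704 in the limma fit. IBH1 was higher in sdg8 than in sdg26 by 0.77 ± 0.15 (1.71-fold, adjusted p = 0.0438 by limma), a comparison in which 1 of 10 genes rose, against 0.611% of all genes higher and 2.5% lower. Ordered from low to high, the genotypes ran wild type, sdg26, sdg8 sdg26 and sdg8, and no neighbouring pair in that order passed the test.

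The sdg8 difference of IBH1 did not pass the test when any 1 of the 4 arrays compared was left out (adjusted p = 0.0859 and 0.0881 without a wild-type array, 0.0937 and 0.111 without an sdg8 array), and the call in sdg8 against sdg26 was lost without any 1 of the 8 arrays. A second IBH1 probe, A_84_P81529, gave levels of -2.34 and -2.28 in sdg8, -2.99 and -2.62 in sdg26, -2.56 and -2.63 in sdg8 sdg26, and -2.95 and -2.98 in wild type. On this probe too the sdg8 arrays were highest, and 1 sdg26 array reached down to the wild-type levels. Its difference in sdg8 was 0.66 ± 0.15 with an adjusted p of 0.087 over 34095 probes, where the probe used above, A_84_P786646, had 0.0241 (limma).

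Markers of other tissues were measured beside these values. Of 8 genes of green aerial tissue, all 8 were well above background on every array and 0 were called in any mutant. In sdg8 7 of the 8 lay below wild type (median -0.16), as did 8 of 8 in sdg26 (median -0.20) and in sdg8 sdg26 (median -0.18). In sdg8 sdg26 2 of the 8 had an unadjusted p under 0.05, against 26.1% of all genes. Of 11 seed genes, 0 were called in any mutant, against the same shares of all genes. Their levels varied widely between replicates, with SEs of 0.56 (EM1) to 2.44 (CRB). All 11 lay below wild type in sdg8 (median -2.27) and in sdg26 (median -2.83), and 9 of 11 in sdg8 sdg26 (median -1.67). The summed signal of the seed list on the log2 scale was -0.07 and 1.65 on the sdg8 arrays and 0.13 and 1.41 on the sdg26 arrays. It was 2.73 and 0.64 on the sdg8 sdg26 arrays, against 4.22 and 1.48 on the wild-type arrays. Of 10 root genes, 8 or 9 were above background on each array; NRT2.1 was above it on 0 arrays and RHD6 on 4. The iron transporter gene IRT1, one of the root list, fell by 1.45 in sdg8 (adjusted p = 0.0128 by limma). It was the 1 of 9 tested root genes called there, against 2.68% of all genes. Of those 9, 6 lay above wild type in sdg8 (median 0.34), among them EXPA7 and EXPA18 with 1.00 each and CASP1 with 0.67 (adjusted p = 0.136, 0.164 and 0.163 by limma). An unadjusted p under 0.05 was found for 5 of 9, against 16.7% of all genes. The part of these tissues in the IBH1 result was not tested.

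The first steps of synthesis showed no called difference. DET2, the steroid reductase early in the pathway, had levels of -0.01 and 0.29 in sdg8, -0.48 and -0.24 in sdg26, 0.20 and 0.16 in sdg8 sdg26, and -0.17 and -0.20 in wild type. Its arrays in sdg8 and in sdg8 sdg26 lay above those of wild type, and both sdg26 arrays lay below. The differences from wild type were 0.33 ± 0.15 in sdg8 (adjusted p = 0.341), -0.17 ± 0.15 in sdg26 (adjusted p = 0.753) and 0.36 ± 0.15 in sdg8 sdg26 (adjusted p = 0.183 by limma). The widest DET2 difference, sdg8 sdg26 minus sdg26, was 0.54 ± 0.15 (95% interval 0.18 to 0.89, adjusted p = 0.151 by limma). On a second DET2 probe, A_84_P845621, the sdg26 arrays (-3.09 and -2.81) overlapped those of wild type (-2.92 and -3.11), with a difference of 0.07. There sdg8 sdg26 minus sdg26 was 0.33 ± 0.19.

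DWF4 encodes the P450 that hydroxylates the steroid side chain, a step known to limit flux through the pathway, and CPD encodes another P450 of the same route. DWF4 had levels of -1.39 and -1.56 in sdg8, -1.75 and -1.67 in sdg26, and -1.38 and -1.73 in sdg8 sdg26, against -1.57 and -1.6 in wild type. CPD had 2.44 and 2.23 in sdg8, 1.95 and 2.21 in sdg26, and 2.24 and 1.93 in sdg8 sdg26, against 2.25 and 2.23 in wild type. For CPD the wild-type arrays lay within the range of the mutant arrays. The DWF4 differences from wild type were 0.11 (sdg8), -0.12 (sdg26) and 0.03 (sdg8 sdg26), with 95% intervals that together spanned -0.48 to 0.47. The CPD differences were 0.09, -0.16 and -0.15 in the same order, with intervals that together spanned -0.54 to 0.48.

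ROT3, a P450 related to DWF4 and CPD that also acts on the side chain, varied most between replicates. Its level was -0.49 and -1.29 in sdg8, -1.70 and -1.5 in sdg26, and -1.26 and -0.81 in sdg8 sdg26, against -1.07 and -1.57 in wild type. Only the sdg26 arrays and those of sdg8 or sdg8 sdg26 did not overlap. With an SE of 0.31, neither the difference from wild type in sdg8 (0.43, adjusted p = 0.539) nor that between sdg8 and sdg26 (0.71, adjusted p = 0.308 by limma) passed the test.

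The last steps of synthesis held both genes that rose in the double mutant. BR6OX1 and BR6OX2 encode the paired P450 oxidases that form castasterone, and BR6OX2 also converts castasterone to brassinolide, the most active brassinosteroid. BR6OX1 had levels of -3.34 and -3.50 in sdg8, -4.00 and -3.56 in sdg26, and -2.48 and -2.99 in sdg8 sdg26, against -4.15 and -4.13 in wild type. All 6 mutant arrays lay above both wild-type arrays, and both double-mutant arrays lay above all single-mutant arrays. The difference in sdg8 sdg26 was 1.40 ± 0.22 (SE, 2.65-fold, 95% interval 0.89 to 1.92, adjusted p = 0.0173 by limma). In sdg8 it was 0.72 ± 0.22 (adjusted p = 0.159) and in sdg26 0.36 ± 0.22 (adjusted p = 0.657 by limma).

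The order of BR6OX1 levels was wild type, sdg26, sdg8 and sdg8 sdg26, and no neighbouring pair passed the test. Against sdg8, sdg8 sdg26 was higher by 0.68 ± 0.22 (adjusted p = 0.248), a comparison with 0 of 10 genes called, against 0.204% of all genes higher and 0.0825% lower. Against sdg26, sdg8 sdg26 was higher by 1.04 ± 0.22 (adjusted p = 0.068 by limma), again with 0 of 10 genes called, against 0.713% higher and 1.49% lower. In each of these comparisons 3 of 10 genes had an unadjusted p under 0.05, against 13.7% of all genes with sdg8 and 15% with sdg26 as the other genotype. That comparison lies within 1 slide: fitted on its 4 arrays alone, the difference was 1.04 with an adjusted p of 0.187. The interaction for BR6OX1 was 0.32 ± 0.31 (adjusted p = 0.995 by limma). For the interaction 0 of 10 genes were called, against 0.00485% of all genes higher and 0% lower, and 2 of 10 had an unadjusted p under 0.05, against 4.48% of all genes. Leaving out 1 array at a time, the double-mutant call did not hold without wild-type replicate 1 or 2 (adjusted p = 0.0849 and 0.068) or without sdg8 sdg26 replicate 1 (adjusted p = 0.0562, difference 1.15), and with another background correction, normexp on the local background, the difference was -0.015.

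On the probe used, BR6OX2 stood apart in the double mutant alone. Its level was -0.27 and -0.34 in sdg8, -0.27 and -0.34 in sdg26, and 0.15 and 0.25 in sdg8 sdg26, against -0.34 and -0.28 in wild type. The arrays of both single mutants and of wild type covered the same range, and both double-mutant arrays lay above it. The difference in sdg8 sdg26 was 0.51 ± 0.11 (SE, 1.42-fold, 95% interval 0.24 to 0.78, adjusted p = 0.0496 by limma). The difference was 0.00 in sdg8 (95% interval -0.27 to 0.28) and 0.00 in sdg26 (95% interval -0.27 to 0.27).

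The interaction for BR6OX2, which asks whether the double mutant exceeds the sum of the single mutants, was 0.50 ± 0.16 with an unadjusted p of 0.0174 and an adjusted p of 0.977 by limma. Against sdg8 and against sdg26 the double mutant was higher by 0.51 in each case (adjusted p = 0.156 and 0.0869 by limma). The call against wild type sat at the threshold and was lost without any 1 of the 8 arrays (adjusted p = 0.0848 to 0.178). A second BR6OX2 probe, A_84_P826388, had -2.75 and -2.41 in sdg8, -2.35 and -2.63 in sdg26, and -2.11 and -2.41 in sdg8 sdg26, against -2.78 and -2.81 in wild type. Its double-mutant range met or overlapped those of both single mutants, and its double-mutant difference was 0.53 ± 0.18 (adjusted p = 0.138 over 34095 probes by limma). This probe differed from wild type by 0.21 in sdg8 and 0.30 in sdg26. Its interaction was 0.02 ± 0.26 (unadjusted p = 0.95 by limma), so it did not show the excess seen on the probe used. BR6OX1 and BR6OX2 are close relatives, and whether their probes bind each other's transcripts was not tested.

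**Figure D2:**
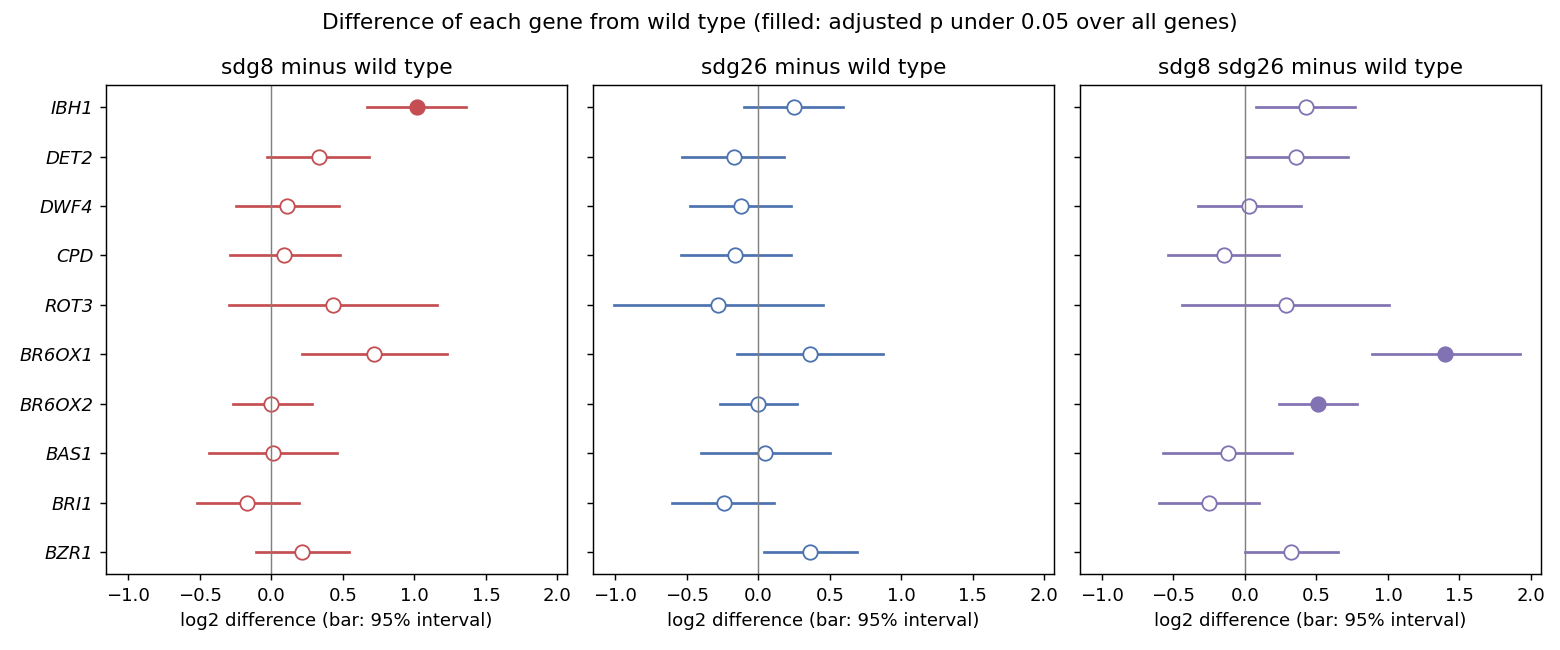
Log2 difference of each gene from wild type (horizontal axis) in each mutant, with its 95% interval as a bar and a filled point where the limma adjusted p was under 0.05. IBH1 is filled in sdg8 (1.02), BR6OX1 (1.40) and BR6OX2 (0.51) are filled in sdg8 sdg26, and no gene is filled in sdg26.

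Root markers also moved in the double mutant, in which 2 of 9 tested root genes rose, against 3.06% of all genes called higher. The 2 were the root hair expansin EXPA7 (1.70 ± 0.28, 3.26-fold, adjusted p = 0.0207) and the endodermal gene CASP1 (0.96 ± 0.20, adjusted p = 0.042 by limma). The median over the list was 0.84, with 9 of 9 above wild type. An unadjusted p under 0.05 was found for 7 of 9, against 26.1% of all genes. IRT1, lower in sdg8, lay 0.73 above wild type in sdg8 sdg26 (adjusted p = 0.0595 by limma). It was 2.17 higher in sdg8 sdg26 than in sdg8 (adjusted p = 0.0172 by limma), the 1 of 9 called there, against 0.286% of all genes. In sdg26 9 of 9 also lay above wild type (median 0.42), with 0 called, against 0.0097% of all genes. There 3 of 9 had an unadjusted p under 0.05, against 8.94% of all genes. RHD6, among the 9, was well above background only on the arrays of sdg26 and sdg8 sdg26 and was tested through them. The summed signal of the root list was 3.71 and 3.43 in sdg8 sdg26, 3.29 and 3.38 in sdg8, 3.29 and 3.64 in sdg26, and 3.33 and 3.47 in wild type on the log2 scale. That sum was mostly the signal of PYK10, which differed by 0.12 ± 0.17 in sdg8 sdg26, so it says little of the other root genes. NRT2.1, of the same list, was not well above background on any array. The part of root RNA in the BR6OX1 and BR6OX2 results was not tested.

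BAS1 encodes a P450 that inactivates brassinosteroids by hydroxylation. Its level was -0.30 and -0.73 in sdg8, -0.39 and -0.55 in sdg26, and -0.73 and -0.55 in sdg8 sdg26, against -0.37 and -0.67 in wild type. Each mutant overlapped wild type. The differences from wild type were 0.01 (sdg8), 0.05 (sdg26) and -0.12 (sdg8 sdg26), each with an SE of 0.19, and the intervals together covered -0.57 to 0.50.

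The receptor gene BRI1 had levels of 2.1 and 2.07 in sdg8, 1.85 and 2.16 in sdg26, and 2.09 and 1.91 in sdg8 sdg26, against 2.19 and 2.31 in wild type. Every mutant array lay below both wild-type arrays, by little. The differences were -0.17 ± 0.15 (sdg8), -0.24 ± 0.15 (sdg26) and -0.25 ± 0.15 (sdg8 sdg26) (adjusted p = 0.636, 0.658 and 0.329 by limma). BRI1 had 4 probes, and they disagreed in sign. The 3 not used above were much dimmer. Their wild-type levels were -5.94 and -5.07 (A_84_P835884), -4.49 and -4.08 (A_84_P797535), and -4.94 and -4.41 (A_84_P828279). A_84_P828279 had no level on 1 of the sdg26 arrays. Of the other 3, A_84_P835884 differed from wild type by 0.57 (sdg8), 0.46 (sdg26) and 0.44 (sdg8 sdg26), A_84_P797535 by 0.22, 0.11 and 0.10, and A_84_P828279 by 0.26, -0.02 and 0.12 in the same order. None of these differences passed the test.

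**Figure D3:**
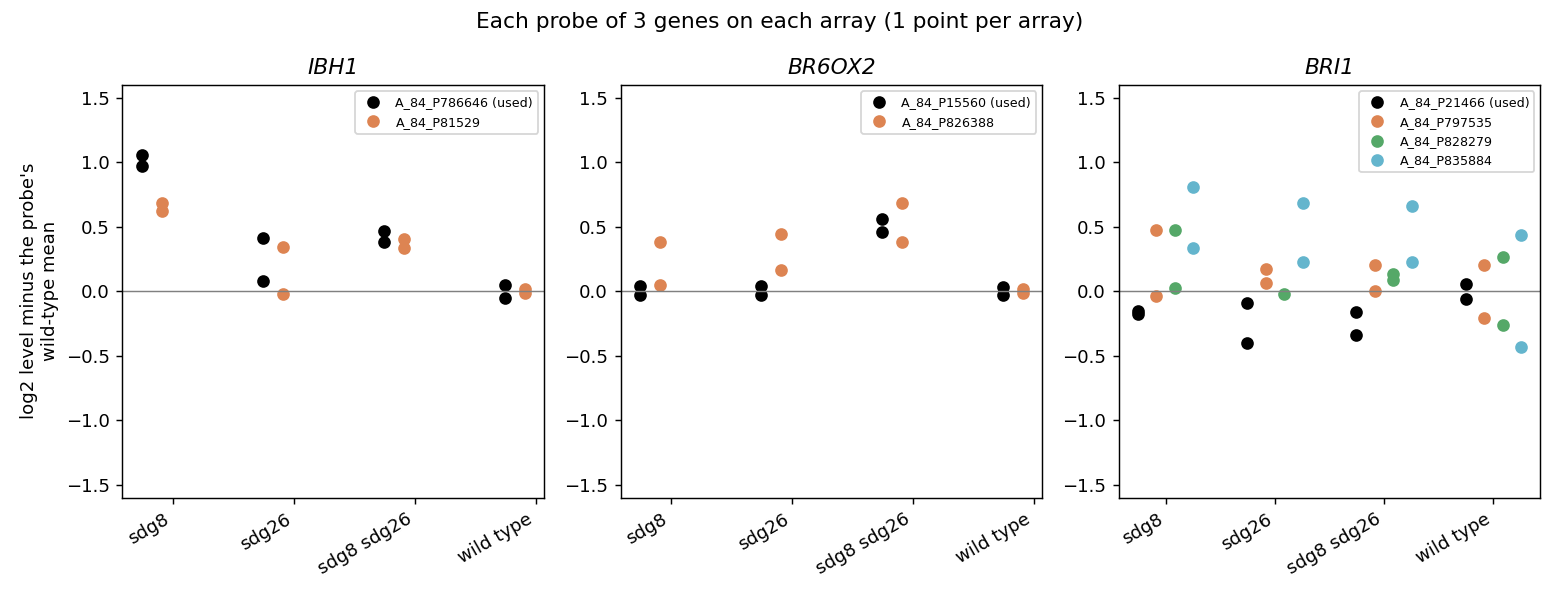
Level of each probe of IBH1, BR6OX2 and BRI1 minus that probe's wild-type mean (log2, vertical axis), 1 point per array, with the probe used in black. The sdg8 arrays of both IBH1 probes lie highest, the black double-mutant points of BR6OX2 lie above all other black points, and the black BRI1 probe lies below 0 in every mutant while most points of the other 3 BRI1 probes lie above 0.

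BZR1, the transcription factor at the end of the pathway, had levels of 0.11 and 0.23 in sdg8, 0.26 and 0.38 in sdg26, and 0.26 and 0.31 in sdg8 sdg26, against -0.17 and 0.09 in wild type. All mutant arrays lay above both wild-type arrays, the nearest pair being 0.11 and 0.09. The difference was 0.21 ± 0.14 (sdg8), 0.36 ± 0.14 (sdg26) and 0.32 ± 0.14 (sdg8 sdg26) (adjusted p = 0.489, 0.52 and 0.189 by limma). A second BZR1 probe gave 0.33, 0.19 and 0.22 in the same order, none of which passed the test. Second probes of DET2, DWF4 and CPD gave differences from wild type of -0.23 to 0.52, none called.

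Other genes of the pathway were drawn from 8 lists of 86 genes, 76 of them besides the 10 above. Of these, 73 were tested. SOB7 had no probe matched here and PRE4 was not kept by the background filter. BSL3 passed the filter but had no level on either sdg8 array. Of the 73, 71 were above background on all 8 arrays. Over all genes, the share called against wild type was 6.39% for the double mutant, 2.68% for sdg8 and 0.0097% for sdg26. Between mutants it was 3.11% for sdg8 against sdg26, and 2.2% and 0.286% for the double mutant against sdg26 and against sdg8. For the interaction it was 0.00485%. Beside these shares, 0 of the 73 list genes were called by limma in each of the 7 comparisons. At an unadjusted p under 0.05 there were 4 for sdg8, 3 for sdg26 and 6 for sdg8 sdg26 against wild type (all genes 16.7%, 8.94% and 26.1%), and the median differences were -0.02, 0.03 and -0.04. Between mutants there were 5 in sdg8 sdg26 against sdg8, 3 in sdg8 sdg26 against sdg26 and 4 in sdg8 against sdg26, and for the interaction 0 (all genes 13.7%, 15%, 16.8% and 4.48%).

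**Figure D4:**
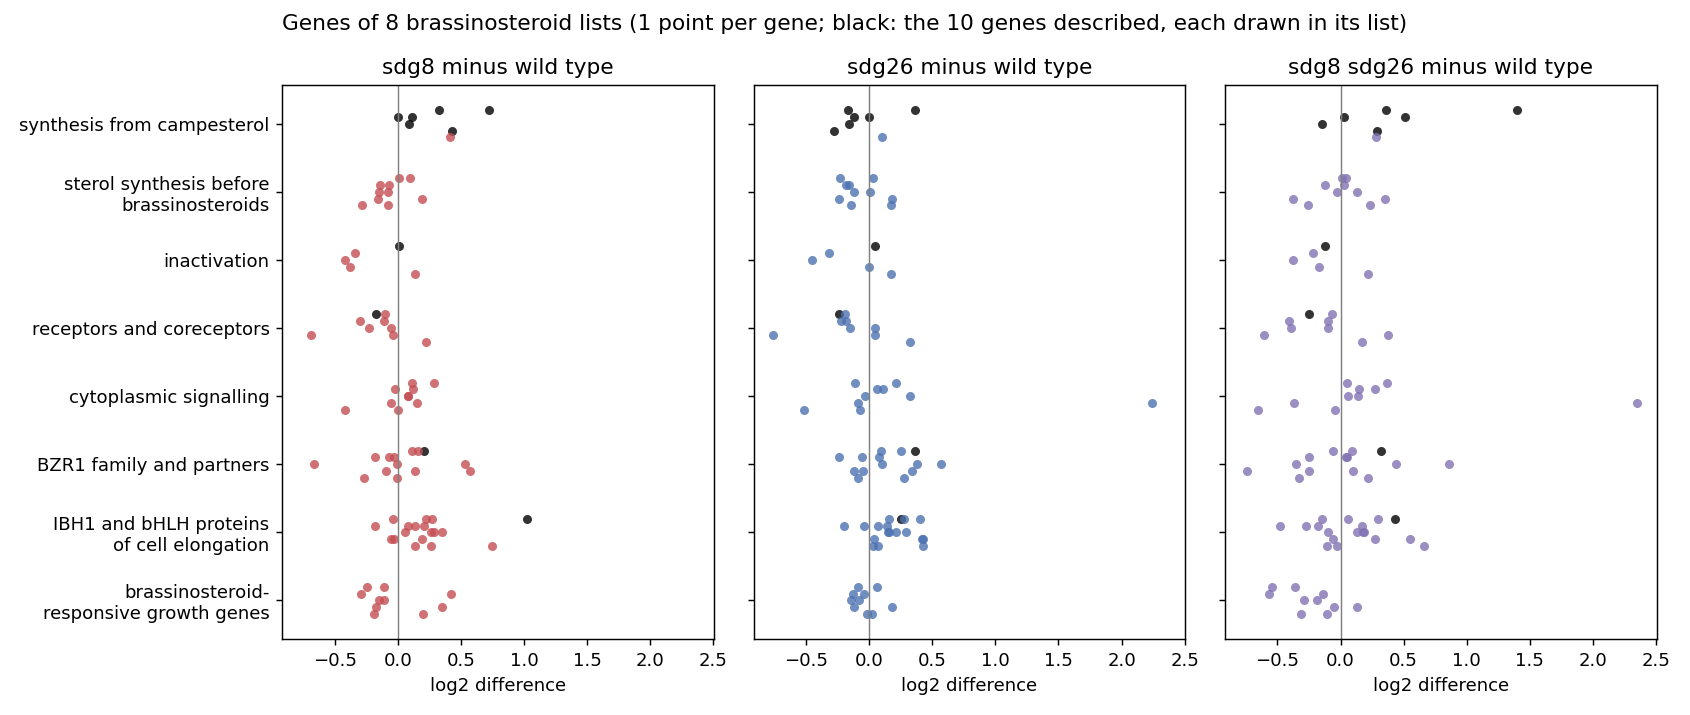
Log2 difference from wild type (horizontal axis) of each tested gene of the 8 brassinosteroid lists (rows), 1 point per gene, with the 10 genes described in black and the others in colour, for sdg8, sdg26 and sdg8 sdg26. The black points farthest from 0 are IBH1 in sdg8 (1.02) and BR6OX1 in sdg8 sdg26 (1.40). The rightmost coloured point in sdg26 and in sdg8 sdg26 is CDG1, not above background in wild type. For it only bounds from the group means are given (at least 1.83-fold and 1.97-fold), which leave out the spread between arrays.

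Among synthesis genes, CYP90D1, a relative of ROT3 with a like role, differed by 0.41 ± 0.15 in sdg8 (adjusted p = 0.24). The sterol genes DWF5, FK and SMT2, which act before campesterol, differed by 0.35, -0.38 and 0.01 in sdg8 sdg26 (adjusted p = 0.185, 0.237 and 0.98 by limma). SMT2 differed by -0.23 in sdg26 (adjusted p = 0.619 by limma). UGT73C5, UGT73C6 and BEN1 of the inactivation list, where the first 2 encode glucosyltransferases, had differences of -0.42, -0.38 and -0.34 in sdg8 (adjusted p = 0.372, 0.351 and 0.356 by limma). In the same order they differed by -0.45, 0 and -0.32 in sdg26 and by -0.38, -0.17 and -0.22 in sdg8 sdg26, none called.

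Around the receptor, the coreceptor genes BAK1 and BKK1 differed by 0.17 and -0.39 and the receptor homologue BRL3 by -0.61 in sdg8 sdg26 (adjusted p = 0.557, 0.252 and 0.35 by limma). BAK1 differed by 0.32 in sdg26 (adjusted p = 0.624 by limma). BRL3 had levels of -4.53 and -4.65 in sdg8 sdg26, against -4.64 and -3.32 in wild type, so its difference rested on 1 wild-type array. Downstream of the receptor, the phosphatase gene BSU1 had levels of -4.20 and -4.45 in sdg8, -4.33 and -4.53 in sdg26, and -4.54 and -4.58 in sdg8 sdg26, against -4.04 and -3.78 in wild type. Every mutant array was below both wild-type arrays. The difference was -0.65 ± 0.16 in sdg8 sdg26, with an adjusted p of 0.0571 that missed the threshold.

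The kinase gene CDG1 was not well above background on the wild-type and sdg8 arrays and was above it on all 4 arrays of sdg26 and sdg8 sdg26, which shared a slide. Against the lowest signal counted as above background, or the probe's own where that was higher, the group means gave at least 1.97-fold higher in sdg8 sdg26 than in wild type (measured means -5.48 and -7.82, adjusted p = 0.0962) and at least 1.83-fold higher in sdg26 (measured mean -5.58, adjusted p = 0.471 by limma). These bounds leave out the spread between arrays, and neither comparison was called. CDG1 passed the filter only through the 4 arrays of sdg26 and sdg8 sdg26. The lowest signal counted as above background was -7.36 to -6.90 on those arrays and -6.86 to -6.05 on the others. AT1G06390, a GSK3-like kinase gene of the same list, differed by -0.37 in sdg8 sdg26 (adjusted p = 0.199).

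Of the BZR1 family, BEH1 differed by 0.53 ± 0.17, 0.38 ± 0.17 and 0.44 ± 0.17 in sdg8, sdg26 and sdg8 sdg26 (adjusted p = 0.187, 0.587 and 0.165 by limma), and BEH3 by -0.01, 0.28 and 0.22. CESTA, a helix-loop-helix partner, was not well above background in wild type and sdg8, and its bound gave no fold. Beside IBH1, the genes of the helix-loop-helix network named by small p were PRE5, whose protein family binds IBH1, with 0.75 ± 0.28 in sdg8 (adjusted p = 0.25) and ACE1 with 0.26 ± 0.11 in sdg8 (adjusted p = 0.313 by limma). In sdg26 and sdg8 sdg26, PRE5 differed by 0.43 and 0.66 and ACE1 by 0.21 and 0.19, none called. Of the growth genes that respond to the hormone, SAUR15 differed by -0.54 ± 0.13 in sdg8 sdg26 (adjusted p = 0.0584), TCH4, a cell wall enzyme gene, by -0.57 ± 0.24 there (adjusted p = 0.193) and AGP4 by 0.42 ± 0.18 in sdg8 (adjusted p = 0.305 by limma).

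Among the 10 genes themselves, Pearson's r over the 8 arrays was 0.78 between BR6OX1 and BR6OX2, 0.83 between DWF4 and CPD, and -0.01 between IBH1 and BR6OX2. The arrays share genotypes and slides, so these values only describe the profiles. Among 4854 other genes whose level spanned at least 1 log2 unit, the 5 most like IBH1 were AT2G47670 (r = 0.981), AT4G37530 (0.981), AT3G26742 (0.965), AT3G56210 (0.963) and TRFL3 (0.954). In sdg8 these differed from wild type by 1.09, 1.1, 2.95, 1.21 and 2.54, and in sdg8 sdg26 by 0.55, 0.62, 1.34, 0.69 and 1.28; the choice by correlation fixes that these follow IBH1.

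The 5 most like BR6OX1 were AT3G50640 (r = 0.978), AT3G62270 (0.974), HA7 (0.972), AGP13 (0.969) and MLP-300B (0.968), and their differences in sdg8 sdg26 ran from 0.76 to 1.77. Those most like BR6OX2, among 4855 genes, were MEE38 (r = 0.992), AT3G09430 (0.981), AT5G25425 (0.979), AT1G78400 (0.975) and AT1G30170 (0.972). They differed from wild type by 1.80, 1.00, 1.58, 3.72 and 3.18 in sdg8 sdg26, and by no more than 0.46 in sdg8 and 0.48 in sdg26. As for IBH1, the choice by correlation fixes that the genes listed follow BR6OX1 and BR6OX2.

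Of the 20 protein-coding genes listed next to the 10 on either side in the gene table, 14 were tested. Called against wild type were 1 of 14 for sdg8 sdg26 and 0 for either single mutant, a look added after values had been seen. Over all genes 6.39% were called for sdg8 sdg26, 2.68% for sdg8 and 0.0097% for sdg26, so 1 of 14 lay near the share over all genes. The 1 gene was AT1G75060 beside BZR1, which fell by 0.69 in sdg8 sdg26 (adjusted p = 0.0411 by limma). The neighbours of IBH1, AT2G43050 and SPPL3, differed by -0.25 and -0.13 in sdg8 (adjusted p = 0.483 and 0.737).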

How the data were processed

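Per the labels' protocols, Cy3-labelled cRNA made from 0.5 ug total RNA of each of 8 samples was hybridised to an Agilent array. Per the file headers, the authors read spot intensities with Agilent Feature Extraction 11.5.1.1, whose processed signal is already background-subtracted; the submitters' processing notes give version 9.1. The authors also deposited log2 values, which differed from those used here by a near constant (medians -0.0127 to -0.00679). Their column medians were -2.37 and -2.32 (sdg8), -2.31 and -2.29 (sdg26), -2.30 and -2.31 (sdg8 sdg26), and -2.33 and -2.33 (wild type).

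Levels are log2 processed signal minus the 75th percentile over the non-control spots of the array (43803 of 45220); 18 to 83 non-uniform spots were left out, and 0 were saturated. Of 43603 probes, 34100 passed a filter that asked for 1 genotype with both arrays well above background, and the brightest stood for its gene. Names came from the TAIR10.1 RefSeq table, which matched 34285 of 35617 probes with an accession (96.3%). The headers name an older build, so no coordinates are given, and promoter motifs were not searched. Genes were tested in 1 two-sided limma 3.58.1 fit (R 4.3.3, 4 residual and 2.81 prior degrees of freedom) with Benjamini-Hochberg adjustment over 20613 genes per comparison, after 2 genes without a level in a genotype were left out. The steps were tested on simulated data. The median SE of a difference was 0.167; arrays give no depth, and their number limits the precision. Alternatives covered background, normalization, filter, probe choice, blocks and left-out arrays.

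The 10 genes and the lists were chosen with earlier results of these data known. Named besides them are, per list, up to 3 genes with the smallest p in any mutant against wild type, and for IBH1, BR6OX1 and BR6OX2 the 5 genes with the most similar levels. One gene that this rule would name is not reported here.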

Additional observations from a re-analysis of the deposited data

How the results depend on the processing

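The count of the 10 genes called in sdg8 against wild type, 1, was 0 with normexp on the local background, without the filter on dim probes (IBH1 adjusted p = 0.0517) and with only the arrays compared (0.0575). It ran from 0 to 1 with 1 array left out. In sdg8 sdg26 against wild type the count of 2 fell to 0 under normexp on the local background, to 1 with normexp on the median background, without the filter, with the mean of the kept probes, with the replicate block, with slide as a random block (correlation 0.0508) and with only the arrays compared, and ran from 0 to 1 with 1 array left out. In sdg8 sdg26 against sdg26 the count of 0 was 1 with probes above background on all arrays (BR6OX1, adjusted p = 0.0471). In sdg8 against sdg26 the count of 1 was 0 with normexp on either background, the mean of the kept probes, the replicate block, slide as a random block and only the arrays compared, and 0 with any 1 array left out. The BR6OX1 difference in sdg8 sdg26 against wild type was -0.015 with normexp on the local background (adjusted p = 0.995), a setting with 0 genes called anywhere; the cause was not tested. IBH1 in sdg8 kept its direction in all 19 alternatives and its call in 11, and BR6OX1 in sdg8 sdg26 kept its call in 14 of 18. The BR6OX2 call in sdg8 sdg26 was kept in only 3 of 19, and the IBH1 call in sdg8 against sdg26 in 4 of 19.

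Replicate numbers did not pair the samples (6 correlations of replicate deviations, -0.40 to 0.39); under the replicate block IBH1 in sdg8 kept its call and BR6OX2 in sdg8 sdg26 lost it (adjusted p = 0.0841). Counts over all genes moved by more than 1.5 times: 553 in sdg8 against wild type ran from 138 to 489 with 1 array left out and from 0 to 589 otherwise; 2 in sdg26 from 0 to 7 and 0 to 6; 1318 in sdg8 sdg26 from 414 to 879 and 0 to 2179; 59 in sdg8 sdg26 against sdg8 from 2 to 129 and 0 to 102; 454 in sdg8 sdg26 against sdg26 from 92 to 350 and 0 to 510; 641 in sdg8 against sdg26 from 121 to 607 and 0 to 1297; and 1 for the interaction from 0 to 4 and 0 to 3. The other list genes, 0 called, reached 4 at most (sdg8 sdg26 against wild type, normexp on the median background).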
